A study of Mus musculus with 6 samples.

Results

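Pax genes encode transcription factors that bind DNA through a paired domain. The 7 genes described here are the family members Pax1, Pax3, Pax5, Pax6, Pax7, Pax8 and Pax9, taken as every probe set that the platform annotation assigns to exactly 1 of these symbols. They comprised 19 of the 45101 probe sets of the array, and 7 of the 18193 genes that could be tested. RNA came from EGFP-positive cells sorted by fluorescence at E11.5, after the region of the intermediate mesoderm had been dissected from mouse embryos and dissociated, and was measured on 6 arrays. In 3 of these the embryos were Pax2 heterozygotes (EGFP/+ in the sample titles) and in 3 they were Pax2 nulls (EGFP/EGFP). Heterozygote cells thus also lack 1 intact Pax2 allele, both groups carry EGFP, and no wild-type sample entered the comparison. How many embryos each sample held is not given in the sources used here, so the p-values reflect the spread between samples that may differ for technical reasons alone. The comparison asks whether other members of the family were higher or lower where Pax2 was missing altogether.

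Pax8 belongs with Pax2 and Pax5 to 1 subgroup of the family, whose proteins carry a paired domain, an octapeptide and a partial homeodomain. In the mouse embryo Pax2 and Pax8 act together in the nephric lineage, where either can stand in for the other at the earliest step. Pax3 and Pax7 have a complete homeodomain and act in somites, dorsal neural tube and neural crest. Pax6 acts in eye, brain and pancreas, while Pax1 and Pax9 lack a homeodomain and act in sclerotome and pharyngeal endoderm, Pax9 also in teeth and limbs. Loss of a gene can be followed by higher expression of a close relative, which is known as genetic compensation.

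No Pax gene of the 7 passed the test in either direction (limma, adjusted p under 0.05), where 1.39% of all genes did. Pax8 had the largest negative difference, 2.29-fold lower in null with a change of -1.20 ± 0.38 (SE, log2), and Pax9 the largest positive one, 2.03-fold higher with a change of 1.02 ± 0.32. For these 2 genes the 3 null arrays lay entirely on one side of the 3 heterozygote arrays, as they did for 13.6% of all genes. The other 5 genes had changes between -0.19 and 0.07 and levels at which genes of unrelated organs also lie. At an unadjusted p under 0.05 in limma, 2 of the 7 genes were counted, Pax8 and Pax9, against 9.73% of all genes. The median change of the 7 was -0.16, beside -0.02 over all genes.

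The labelled tissue was checked against its markers. All 10 measured genes of the metanephric and nephrogenic mesenchyme list and all 12 of the nephric duct list had mean levels at or above the median of all probe sets (6.20 on the log2 scale). Of all 18193 genes, each read by its probe set of highest mean, 10940 reached that level. Of the inhibitory spinal interneuron list, whose cells also use Pax2, Pax5 and Pax8, 9 of 13 genes had means below 4.81, the 33rd percentile of the probe sets, among them Gad1, Gad2, Lhx5, En1 and Ptf1a. The other 4 were above the median, namely Lhx1 (7.30), Elavl4 (7.35), Slc32a1 (6.86) and Tubb3 (6.58). The arrays had medians between 6.12 and 6.24 and fell into 3 pairs, each of 1 heterozygote and 1 null array, by the levels of 18 hybridization control probe sets. Heterozygote 1 went with null 3, heterozygote 2 with null 1 and heterozygote 3 with null 2. The labels do not give these pairs, which come from the control values alone, and a fit with the pair as a block is given beside the fit without it where it changes a call. With the block 4.56% of genes passed, 2.67% higher and 1.90% lower in null.

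**Figure D1:**
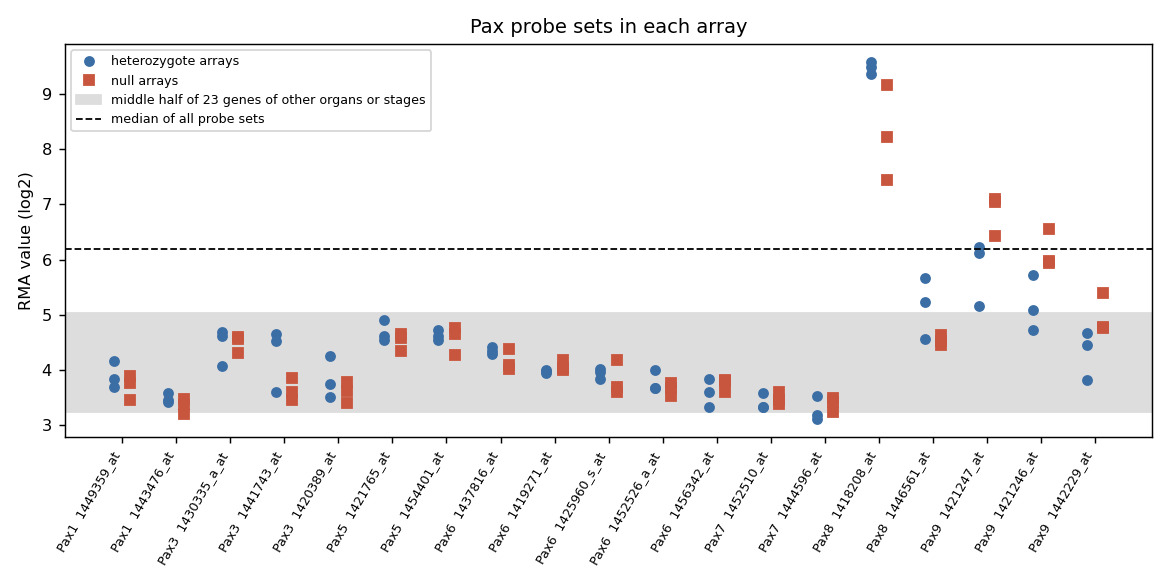
RMA values (log2) of the 19 Pax probe sets on the 3 heterozygote arrays (circles) and the 3 null arrays (squares), with the interquartile range of 23 genes of other organs or stages in grey and the median of all probe sets as a dashed line. Probe set 1418208_at of Pax8 stands above the dashed line on all 6 arrays, 1421247_at of Pax9 does so on the 3 null arrays and on heterozygote 3, and the 14 probe sets of Pax1, Pax3, Pax5, Pax6 and Pax7 lie between 3.11 and 4.90.

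The sequences before the start sites of Pax8 and Pax9 are shown because these were the Pax genes that differed most between the genotypes, in opposite directions. Each is the 250 bases upstream of the RefSeq start (GRCm38.p6), read 5′ to 3′ on the gene's own strand, at chr2:24475600-24475849 on the minus strand for Pax8 and chr12:56695221-56695470 on the plus strand for Pax9. Capitals mark matches, on either strand, to any of 3 motifs. The first is the TATA box, searched as TATAAA. The second is the CCAAT box, searched by those letters. The third, GCGTGAC, is a core of the sites bound by the paired domain of the Pax2, Pax5 and Pax8 subgroup. No matches overlapped in the windows shown.
Pax8: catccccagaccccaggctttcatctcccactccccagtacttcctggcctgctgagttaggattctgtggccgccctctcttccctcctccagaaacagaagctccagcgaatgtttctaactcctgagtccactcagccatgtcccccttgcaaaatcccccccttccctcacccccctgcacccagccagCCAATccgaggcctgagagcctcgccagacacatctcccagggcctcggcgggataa
Pax9: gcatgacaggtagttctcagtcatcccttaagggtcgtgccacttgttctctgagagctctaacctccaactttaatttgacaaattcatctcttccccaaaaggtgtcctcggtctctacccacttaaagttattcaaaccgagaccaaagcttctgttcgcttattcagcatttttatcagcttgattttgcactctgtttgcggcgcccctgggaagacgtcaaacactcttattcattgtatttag
The Pax8 window held CCAAT from 57 to 53 bases before the start, on the plus strand of the gene, and the Pax9 window held none of the 3 motifs. Among 32851 such windows in the RefSeq table, 33.8% held the CCAAT box, 12.4% the TATA box and 1.78% the paired-domain core. Absence of a match says only that these letters are not in this window. The table held 6 of the 7 Pax genes, all but Pax3.

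Pax8, the nearest relative of Pax2 with a known part in the kidney lineage, was read by 2 probe sets. Its chosen probe set, 1418208_at, is that of highest mean and stands at the 79.9th percentile of all probe sets. It read 9.58, 9.36 and 9.48 in heterozygotes 1, 2 and 3, and 7.45, 9.16 and 8.22 in nulls 1, 2 and 3 (log2). The heterozygotes were within a narrow band, whereas the nulls were spread widely, with null 2 just under the lowest heterozygote and null 1 the lowest of all. The means were 9.47 ± 0.11 in heterozygotes and 8.27 ± 0.85 in nulls (SD, n = 3 each), with a 95% interval of the change from -2.07 to -0.32. The difference missed the threshold (limma, adjusted p = 0.263), and 5.12% of genes had a smaller p. Within the array pairs the null was lower by -1.36 in pair 1, -1.91 in pair 2 and -0.32 in pair 3, and the fit with the pair as a block did not pass either (limma, adjusted p = 0.100). The size depended on which null array was included. Without null 1 the change was -0.79 ± 0.29 (limma, adjusted p = 0.499), and without null 2 it was -1.64 ± 0.26 (adjusted p = 0.0546).

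The other Pax8 probe set, 1446561_at, lay near the 33.4th percentile. With a mean of 4.84 it read at the level of genes of other organs, whose interquartile range was 3.25 to 5.04. It read 4.57, 5.66 and 5.23 in the heterozygotes and 4.53, 4.63 and 4.45 in the nulls (log2). Heterozygotes 2 and 3 were above all nulls, but heterozygote 1 was at the level of the nulls, so the groups overlapped. Its change was -0.62 ± 0.27 (limma over all 45037 non-control probe sets, adjusted p = 0.666). All 6 pair differences of the 2 Pax8 probe sets were negative, while over the 6 arrays the probe sets correlated at r = 0.52, as a description of values from the same arrays.

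Pax9, which acts in the pharyngeal endoderm and its derivatives, was read by 3 probe sets, and in each of them the null arrays lay above the heterozygote arrays. The chosen probe set, 1421247_at, read 5.16, 6.12 and 6.22 in heterozygotes 1, 2 and 3 and 7.10, 7.04 and 6.42 in nulls 1, 2 and 3 (log2). Heterozygote 1 was the lowest by nearly 1 unit, and null 3 came within 0.21 of heterozygote 3. The means were 5.83 ± 0.59 in heterozygotes and 6.86 ± 0.38 in nulls (SD, n = 3 each), with a 95% interval of the change from 0.29 to 1.76. The test over the 18193 genes was not passed (limma, adjusted p = 0.249), and 4.87% of genes had a smaller p. In the array pairs the null was higher by 1.27 in pair 1, 0.98 in pair 2 and 0.83 in pair 3. With the pair as a block, Pax9 was the 1 gene of the 7 that passed, with a change of 1.02 ± 0.13 (limma, adjusted p = 0.0162). That call was lost when pair 1 (adjusted p = 0.0556) or pair 2 (adjusted p = 0.109) was left out of the limma fit with the block, and held without pair 3 (adjusted p = 0.0371).

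The second Pax9 probe set, 1421246_at, read 4.73, 5.73 and 5.09 in heterozygotes and 5.93, 6.55 and 5.98 in nulls (log2). The third, 1442229_at, read 3.82, 4.68 and 4.46 in heterozygotes and 5.39, 4.78 and 4.77 in nulls. Both had heterozygote 1 lowest, and the gap between the groups was 0.20 for the second and 0.082 for the third. Their changes were 0.97 ± 0.29 and 0.66 ± 0.28 (limma over all non-control probe sets, adjusted p = 0.322 and 0.630). Tested as probe sets, 0 of the 19 passed in limma, where 0.691% of all probe sets did, and with the pair as a block 1 did, 1421247_at, where 1.71% did. Groups did not overlap in 5 of the 19, against 11.7% of all probe sets. Across the 6 arrays the chosen probe set correlated at r = 0.86 with the second and r = 0.91 with the third, and the latter pair at r = 0.74. All 9 pair differences were positive, but the third probe set, with a mean of 4.65 at the 30.8th percentile, read at the level of genes of other organs (interquartile range 3.25 to 5.04). The 3 probe sets share their arrays and their RNA, so they are not separate measurements of the genotype.

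**Figure D2:**
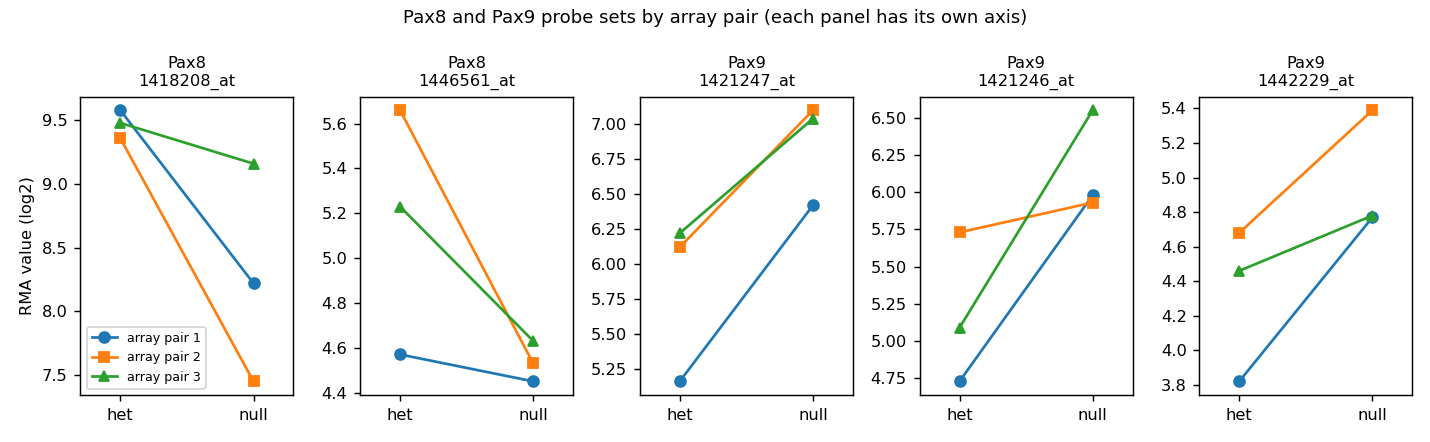
RMA values (log2, own axis in each panel) of the 2 Pax8 and 3 Pax9 probe sets, with lines joining the heterozygote and null array of each array pair. All 6 Pax8 lines run downwards from heterozygote to null and all 9 Pax9 lines upwards, the Pax8 line of pair 3 in 1418208_at having a difference of -0.32.

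Pax5, the third gene of the Pax2 subgroup, acts at the midbrain-hindbrain boundary and in B lymphocytes. Its chosen probe set, 1421765_at, read 4.61, 4.90 and 4.54 in heterozygotes and 4.34, 4.58 and 4.65 in nulls (log2). The groups overlapped, with the highest value in heterozygote 2 and the lowest in null 1. The change was -0.16 ± 0.17, with a 95% interval from -0.56 to 0.24 (limma, adjusted p = 0.957). Probe set 1454401_at had a change of -0.07 ± 0.18.

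Pax3 and Pax7, regulators of muscle precursors and neural crest, gave low values on every array. For Pax3 the chosen probe set 1430335_a_at read 4.08, 4.62 and 4.69 in heterozygotes and 4.59, 4.56 and 4.31 in nulls, with a change of 0.02 ± 0.20. The 3 Pax3 probe sets disagreed in sign, 1441743_at having a change of -0.62 ± 0.29 and 1420389_at one of -0.24 ± 0.22. In 1441743_at, heterozygotes 1 and 2 read 4.65 and 4.52, whereas heterozygote 3 read 3.61, as did null 1. For Pax7 the probe set 1452510_at read 3.59, 3.33 and 3.33 in heterozygotes and 3.61, 3.39 and 3.45 in nulls, and its change was 0.07 ± 0.16. Both genes had overlapping groups in all their probe sets.

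Pax6 was read by 5 probe sets, more than any other of the 7 genes. The chosen one, 1437816_at, read 4.30, 4.35 and 4.41 in heterozygotes and 4.10, 4.39 and 4.02 in nulls, with a change of -0.18 ± 0.16. Changes of the other 4 ran both ways, the largest being 0.15 ± 0.18 for 1456342_at. In 1419271_at the null arrays lay above the heterozygote arrays, but by 0.0020, and the change was 0.10 ± 0.14. Pax1, a sclerotome regulator like Pax9, read 4.17, 3.83 and 3.70 in heterozygotes and 3.76, 3.89 and 3.46 in nulls with 1449359_at. Its change was -0.19 ± 0.19, and 1443476_at gave -0.14 ± 0.15.

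Limma's adjusted p for these 5 genes lay between 0.909 and 0.995, and was 0.442 or more with the pair as a block. Their 14 probe sets had means from 3.33 to 4.60, at or below the 30.2nd percentile on the array. Genes of other organs or stages, such as casein and hormone genes, served as a guide to the reading of probe sets with little target. Of 27 listed, 23 were measured, and their means had an interquartile range from 3.25 to 5.04 and a highest value of 7.87, for Prm1. All 14 probe sets lay in that interquartile range. The highest upper bound of the 95% intervals of the 5 genes was a 1.41-fold rise, for Pax3. RMA compresses differences at such levels, so this bound holds for the array reading and not for the RNA. Marker genes of the tissues in which these Pax genes act were not uniformly low. At or above the median of all probe sets were 7 of 9 sclerotome genes, 5 of 7 neural crest genes, 3 of 8 dermomyotome and muscle genes and 2 of 9 B lymphocyte genes. None of 11 neural tube progenitor genes and none of 9 eye and pancreas genes reached it, while 10940 of all 18193 genes did.

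**Figure D3:**
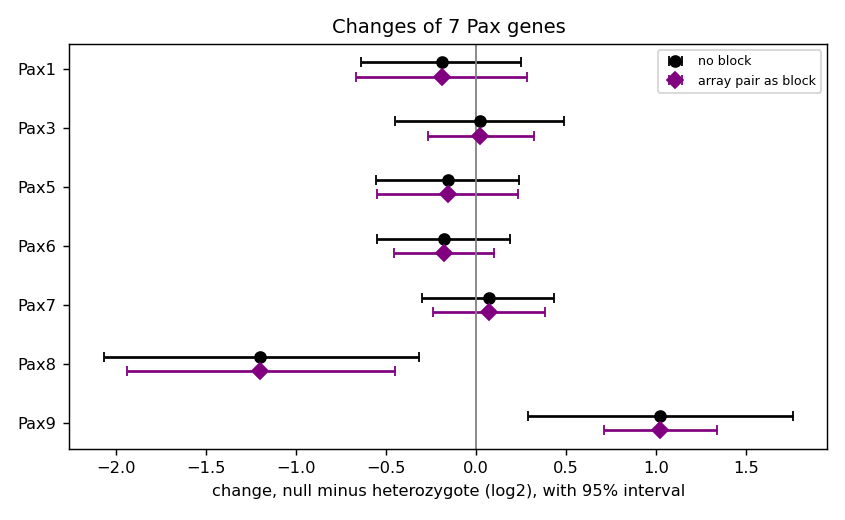
Change of each of the 7 Pax genes (null minus heterozygote, log2) with its 95% interval from limma, without a block (circles) and with the array pair as a block (diamonds). The intervals of Pax8, from -2.07 to -0.32 without the block, and of Pax9, from 0.29 to 1.76, do not include 0, and those of the other 5 genes do; these intervals are not adjusted for the number of genes.

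Pax proteins work with Eya and Dach proteins and with homeodomain factors such as Six2 in a network of transcription factors and co-regulators. Of 11 measured genes of that network, 1 fell and 0 rose (limma, adjusted p under 0.05), where 0.583% of all genes fell and 0.808% rose. Eya1, a transcriptional co-activator that is needed for kidney formation, read 10.68, 10.55 and 10.68 in heterozygotes and 9.42, 9.51 and 9.86 in nulls, a change of -1.04 ± 0.17. The next by p were Eya4 (-0.77 ± 0.20), the progenitor factor Six2 (-1.13 ± 0.30) and Eya2 (-1.40 ± 0.38), which did not pass without the block. In all 4, which were picked by their small p, the null arrays were below the heterozygote arrays. Over the whole list the groups did not overlap in 5 of 11 genes, beside 13.6% of all genes. The median of the network was -0.17, with Six3 and Six6, which belong to eye and forebrain, at -0.06 and 0.02. With the block, Eya1 and Six2 fell and Dach2 (0.66) rose, where 1.90% of all genes fell and 2.67% rose. The groups of Dach2 overlapped, and its adjusted p in limma was 0.049 with the block and 0.514 without it.

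Cofactors of Pax proteins had changes between -0.43 (Kdm6a) and 0.32 (Tle1). They comprised PTIP (encoded by Paxip1), Paxbp1, the Groucho-type corepressors Tle1 to Tle4 and subunits of the associated histone methyltransferase complexes. None of the 13 measured genes passed in limma, where 1.39% of all genes did. An unadjusted p under 0.05 was found for 0 of them, against 9.73% of all genes. Their median change was -0.03, beside -0.02 over all genes. Kdm6a, a histone demethylase, had the smallest p, with a change of -0.43 ± 0.19 and null arrays below heterozygote arrays. It was the 1 gene of the 13 whose groups did not overlap, beside 13.6% of all genes.

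Among 19 measured kidney genes that have been linked to Pax2 and Pax8, 6 fell and 0 rose (limma), beside 0.583% and 0.808% of all genes, and the median change was -0.71. The 6 were Gdnf (-2.01 ± 0.17), Lhx1 (-2.50 ± 0.22), Ret (-3.37 ± 0.48), Gata3, Sall1 and Bmp7. Ret, the receptor that guides the ureteric bud, read 9.91, 10.27 and 10.26 in heterozygotes and 6.46, 8.00 and 5.86 in nulls. Its nulls were spread like those of Pax8, with null 2 the highest of the 3 in both genes, while the lowest was null 3 for Ret and null 1 for Pax8. Lhx1, a duct and nephron transcription factor, read 8.27, 8.55 and 8.83 in heterozygotes and 5.90, 6.42 and 5.85 in nulls. The mean level of the 12 duct genes ranged from 9.38 to 9.67 in heterozygotes and from 8.03 to 8.49 in nulls, with null 1 lowest and null 2 highest as for Pax8. Nulls 1, 2 and 3 had that order also in the Pax-Eya-Six-Dach network list (7.80, 7.99 and 7.83) and in the sclerotome list (8.62, 8.87 and 8.68). The heterozygotes paired with them, in that order 2, 3 and 1, read 8.21, 8.32 and 8.22 in the network list. They read 8.62, 8.85 and 8.55 in the sclerotome list, near their paired nulls, and 9.38, 9.51 and 9.67 in the duct list. The duct list was not lower throughout. Calb1 (-5.97 ± 0.53), Ret and Lhx1 had the largest differences, whereas Krt8 (-0.05 ± 0.25), Krt18 (-0.05 ± 0.25), Epcam (-0.06 ± 0.16) and Wnt9b (-0.18 ± 0.26) were near 0. Tfap2b had a change of 1.19 ± 0.24, which passed with the pair as a block (limma, adjusted p = 0.0112). In bulk samples, fewer cells of a type and less RNA per cell cannot be told apart, and the part of duct cells in the Pax8 values was not tested. With the block, 10 of the 19 fell and 0 rose, beside 1.90% and 2.67% of all genes.

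Markers of the tissues in which Pax9 and Pax1 act were read beside them. Of 8 measured genes of pharyngeal and foregut endoderm, 1 rose and 0 fell, beside 0.808% and 0.583% of all genes. A positive change was seen in 7 of the 8, as in 8438 of all 18193 genes. The median change of the 8 was 0.60, beside -0.02 over all genes. Foxa2, an endodermal transcription factor, read 4.33, 4.58 and 4.58 in heterozygotes and 6.90, 7.36 and 8.07 in nulls, a change of 2.94 ± 0.28 (limma, adjusted p = 0.00439). Shh, a signal of endoderm and floor plate, had a change of 1.43 ± 0.34, Hhex one of 0.90 ± 0.31 and Foxa1 one of 1.07 ± 0.42, none of which passed. With the pair as a block Shh passed (limma, adjusted p = 0.0499), so that 2 of the 8 rose, where 2.67% of all genes did. In nulls the highest Foxa2, Foxa1 and Hhex values were on null 3, the array with the lowest reading of the chosen Pax9 probe set among the 3. By array pair, Foxa2 (3.74), Foxa1 (2.03) and Hhex (1.34) had their largest differences in pair 1, which holds null 3. The chosen Pax9 probe set also had its largest difference there (1.27), while Shh had its smallest (0.70). The mean level of the 8 genes ranged from 4.45 to 4.77 in heterozygotes and from 5.15 to 5.68 in nulls. Foxn1, a thymus regulator, and Sox2 had levels of 4.56 and 3.18 in nulls, inside the range of the genes of other organs. Hhex and Foxa1, with means of 3.88 and 4.22 over the 6 arrays, also lay in the interquartile range of those genes (3.25 to 5.04). In all, 4 of the 8 had means below 4.81, the 33rd percentile of the probe sets. The part of endodermal cells in the Pax9 values was not tested.

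The sclerotome list had a median change of -0.02 over 9 genes, of which 0 passed in limma and 4 had an unadjusted p under 0.05, which 9.73% of all genes had. Its mean level ranged from 8.55 to 8.85 in heterozygotes and from 8.62 to 8.87 in nulls, so the groups overlapped. Twist1 had a change of 2.15 ± 0.49 and Uncx one of -2.19 ± 0.57. Blocking on the pair, Twist1 rose (limma, adjusted p = 0.0112) and Uncx fell (adjusted p = 0.0203). The others of the 4 genes with an unadjusted p under 0.05 were Acan (0.58 ± 0.25) and Meox1 (-0.42 ± 0.15). In both the groups did not overlap, as in 13.6% of all genes, and neither passed with the block. Col2a1 (0.33 ± 0.31) and Sox9 (0.12 ± 0.23), which mark cartilage precursors, had small changes. Nkx3-2, a sclerotome gene that Pax1 and Pax9 activate, read 3.84 ± 0.23 in heterozygotes and 3.77 ± 0.05 in nulls (SD, n = 3 each).

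**Figure D4:**
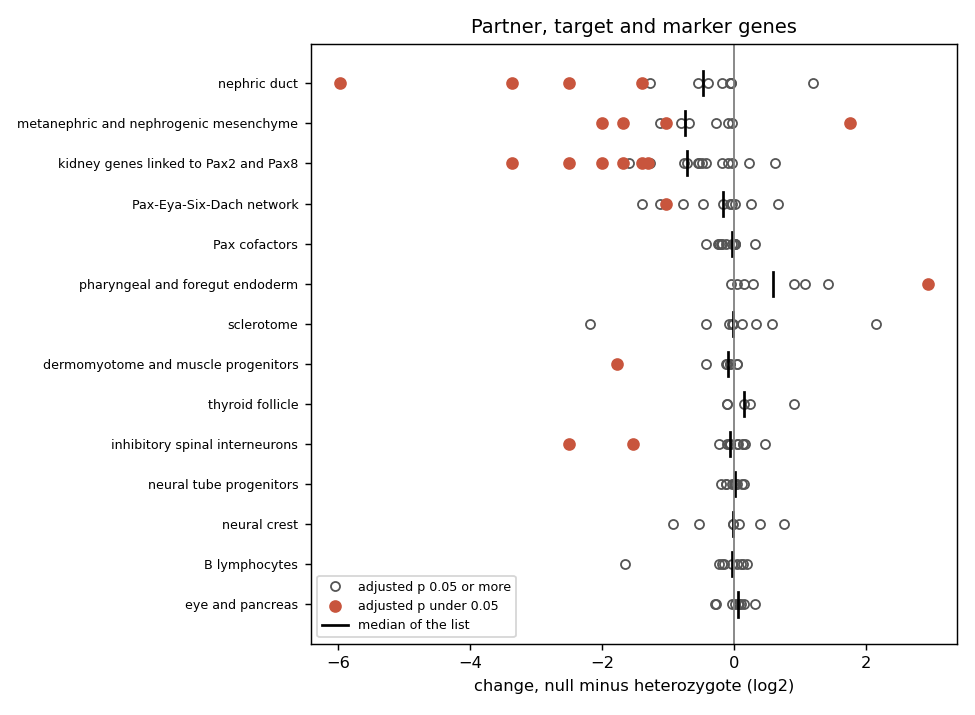
Change of each measured gene (null minus heterozygote, log2; filled where limma's adjusted p is under 0.05) in 14 lists of partners, targets and cell markers, with the median of each list as a bar. Kidney lists lie mostly to the left, with a median of -0.71 for genes linked to Pax2 and Pax8. The endoderm list lies mostly to the right with a median of 0.60, and Pax cofactors have a median of -0.03. In the metanephric and nephrogenic mesenchyme list 9 of 10 changes were negative, as were 9755 of all 18193, with Wt1 (-0.09) and Itga8 (-0.03) near 0. Its Gdnf, Sall1 and Eya1 fell, 3 of the 10, where 0.583% of all genes did. Its Cited1 rose (1.76 ± 0.33, limma, adjusted p = 0.0491), where 0.808% did.

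The remaining marker lists had medians between -0.09 and 0.15. In the dermomyotome and muscle list Meox2 fell by 1.77 on the log2 scale and the other 7 of 8 genes did not pass, with Myf5 (0.05 ± 0.16), Myod1 (-0.11 ± 0.16) and Myog (-0.12 ± 0.20) near 0. In the interneuron list Lhx1, which is also a duct gene, and Elavl4, an RNA-binding protein of neurons (-1.54 ± 0.29), fell and the other 11 of 13 did not pass. Of all genes, 0.583% fell. None of 11 neural tube progenitor genes, 7 neural crest genes, 9 B lymphocyte genes, 5 thyroid follicle genes and 9 eye and pancreas genes passed in limma. At an unadjusted p under 0.05 these lists counted 0, 1, 1, 1 and 0 genes, where 9.73% of all genes were counted. Tfap2a, a neural crest and epithelial transcription factor, had a change of 0.75 ± 0.21 and passed with the pair as a block (limma, adjusted p = 0.0225). Blnk, an adaptor of B cell signalling, had a change of -1.65 ± 0.44 and passed with the pair as a block (limma, adjusted p = 0.00742), while Ms4a1 and Cd79a had changes of 0.04 ± 0.14 and -0.18 ± 0.21.

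Genes with a pattern like that of Pax8 or Pax9 were sought among the 10939 other genes at or above the median level, by Pearson correlation over the 6 arrays. For Pax8 the 3 most alike were Hacd4 (r = 0.994), Pbdc1 (0.989) and Dcdc2a (0.983), with changes of -0.81, -0.49 and -1.84. Pax9 was followed most closely by Rnd3 (r = 0.995), Jup (0.993) and Epb41l2 (0.990), with changes of 0.69, 0.39 and 0.65. None of these 6 genes passed limma without the block. With it Rnd3 (adjusted p = 0.0292) and Epb41l2 (adjusted p = 0.0419) rose. With 6 arrays that share a genotype difference and so many genes, values this high are a description only.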

How the data were processed

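Values were the authors' deposited log2 values, 1 per probe set and array, from a 1-colour array hybridized with cDNA amplified from 10 ng of total RNA (NuGEN WT-Pico Ovation, per the labels' protocols). The submitters' processing notes name affy, RMA and limma without versions or settings. RMA equalizes arrays, which hides differences in total RNA. The number of arrays limits the precision. Pax2 itself is not analysed here, so genotype labels could not be checked against it.

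Of 45101 probe sets, 64 were controls and 34958 had exactly 1 symbol. Each of 18193 genes was represented by its probe set of highest mean, without a filter, and its change was tested with limma 3.58.1 in R 4.3.3 (lmFit, eBayes, two-sided, Benjamini-Hochberg over all genes, threshold 0.05). The code was tested on simulated data. The 7 Pax symbols matched RefSeq by gene identifier.

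Arrays were paired by the smallest summed distance over 18 hybridization controls, 1.97 against 5.06 for the next of 15 matchings. Deviations from genotype means correlated at 0.377 to 0.628 within pairs and at -0.453 to 0.097 otherwise. Deviations from a mean of 3 arrays sum to 0, so positive values within pairs push the others down. Part of this contrast is thus built in. The Pax genes, lists and this block were chosen with earlier results of these data known. Named were all 7 genes, their 19 probe sets, up to 4 genes of smallest p in a list and the 3 most alike genes. Other list genes were named after their values were seen, as were the neighbouring genes.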

Additional observations from a re-analysis of the deposited data

How the results depend on the processing

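With 3 arrays a genotype, no array annotation of batch and 5 of 7 Pax genes at low readings, the fits bear mainly on Pax8 and Pax9. Over 18 alternatives each, Pax8 stayed negative (-1.64 to -0.79) and Pax9 positive (0.69 to 1.24). Limma's adjusted p ranged from 0.0266 to 0.678 for Pax8 and from 0.0162 to 0.647 for Pax9. The count of Pax genes that passed was 1 with the array pair as a block (Pax9, change 1.02) and 2 with the block and without pair 3 (Pax8 at -1.63 and Pax9 at 1.12), against 0 without the block. It was 0 in all 6 fits that left out 1 array without a block. Among probe sets, 1 passed with the block. Leaving out pairs under the block was added after seeing the data.

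Signs near 0 turned. Pax3 became -0.01 with median centring, -0.07 with array weights, -0.28 as the mean over probe sets, and -0.17 to 0.13 with 1 array left out. With the block it was -0.08 without pair 1, where Pax1 was 0.06, and without pair 2 Pax5 was 0.04 and Pax7 -0.04. The count of all genes that passed, 253, was 3 without moderation, 553 with array weights, 830 with the block, 437, 121 and 517 with the block and without pair 1, 2 or 3, and 84 to 318 with 1 array left out. The cause of these shifts was not tested. No paired analysis by replicate number was possible because the labels number the samples across genotypes, not within them.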

Other observations

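The nearest tested genes on either side of each Pax gene, 3 a side by their order in the RefSeq table, were read as well. Of all genes, 1.39% passed without a block, 0.808% higher and 0.583% lower in null. Around Pax8 the 6 genes had changes between -0.17 and 0.22, and none passed in limma. Around Pax9, whose neighbours include Nkx2-1, Nkx2-9 and Foxa1, changes ran from -0.52 to 1.07 and none passed. Foxa1 was the highest of these (1.07 ± 0.42) and Mipol1 the lowest (-0.52 ± 0.16). Pax1 had Foxa2 as a neighbour, the 1 gene of its 6 that rose (2.94 ± 0.28), while Pax1 itself had a change of -0.19 ± 0.19 and Nkx2-2, next to it on the other side, one of -0.20 ± 0.19. None of the 24 genes around Pax3, Pax5, Pax6 and Pax7 passed without a block, with changes between -1.03 (Sgpp2) and 0.68 (Epha4). With the array pair as a block Sgpp2 fell (limma, adjusted p = 0.0135) and Epha4 rose (adjusted p = 0.0309), both from the genes around Pax3. In that fit 1.90% of all genes fell and 2.67% rose.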
